A study of Mus musculus with 12 samples.

Results

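The p53 target genes are the set of genes that the transcription factor p53 (Trp53 in the mouse) is known to switch on after DNA damage, together with p53 itself and its main inhibitors. The set was given as a list of 38 symbols, and all 38 were found among the 55216 genes of the count table. After the filter on low counts, 35 of the 38 were tested among 13177 genes. Myc-CaP is a male prostate cancer line of FVB/NJ mice in which a MYC transgene under the probasin promoter drives the tumor, and all 12 libraries come from this 1 line. The cells were left untreated (Ctrl) or treated for 48 h with 200 pg IFNγ (IFN200), 2000 pg IFNγ (IFN2000), 2 µM oxaliplatin (Oxali), or oxaliplatin with either IFNγ dose (Combo200 and Combo2000). Each group has 2 libraries, and a library holds between 18749975 and 25931516 counts. The labels give the IFNγ amount without a volume. The questions were how each p53 target moved with the drug and whether IFNγ changed that response.

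Oxaliplatin is a platinum drug that crosslinks DNA. DNA damage activates kinases that free p53 from Mdm2, the ubiquitin ligase that marks it for degradation, and from Mdm4, its relative that blocks p53 as a transcriptional activator. Stabilized p53 binds response elements built from a pair of 10-base units, called p53 half-sites, and raises transcription of genes for cell cycle arrest, DNA repair, metabolism and apoptosis. Mdm2 is itself a p53 target and so closes a feedback loop. IFNγ is a T cell cytokine that acts through JAK and STAT proteins.

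In 6 of the 12 libraries, all of them single treatments, the agent label disagrees with the title: the libraries titled IFN200 carry the agent label for oxaliplatin, those titled IFN2000 the label for 200 pg IFNγ, and those titled Oxali the label for 2000 pg IFNγ. Groups follow the titles. A gene is said to be called where edgeR's quasi-likelihood test gave an adjusted p under 0.05, and changes are log2 fold changes ± SE. The labels of Ctrl, Combo200 and Combo2000 agree. Between these, 28 of 35 members were called in Combo200 minus Ctrl (68.7% of all genes tested were called there) and 28 in Combo2000 minus Ctrl (69.2%). Of the luminal epithelial markers, the keratin gene Krt8 had 353 to 628 counts per library, while Epcam was at 0 in every library and Krt18 and Cdh1 at no more than 6. IFN2000 replicate 2 held reads of T cell markers, with 117 counts of Ifng, 64 of Ptprc and 13 of Cd3d, and summed T cell markers of 10.5 CPM (counts relative to library size) against 0.426 in IFN2000 replicate 3. IFN200 replicate 1 held reads of heart muscle genes, with 63 counts of Actc1 and 28 of Myh6. The summed heart muscle list was 3.18 to 6.19 CPM with the drug and 0.8 to 1.22 in Ctrl, mostly Tnnt2. The summed T cell list was 1.26 to 1.92 CPM with the drug and 0.127 to 0.54 in Ctrl and IFN200, mostly Lck, with Cd8a at 0 in every library. The summed fibroblast list was 21.7 to 27.0 CPM with the drug and 9.49 to 16.6 without, mostly Pdgfra. The macrophage list was 1.61 to 2.37 CPM with the drug, 0.509 to 1.22 in Ctrl and IFN200, and 1.06 to 3.53 in IFN2000. Of its markers, Csf1r had 0 counts in each library without drug and 8 to 19 in each with drug. Lyz2 had 0 to 1 counts without drug and 3 to 11 with drug, and Cd68 10 to 25 and 20 to 32. Adgre1 and Itgam were at 0 in every library. Their part in the results was not tested. In bulk RNA, fewer cells of a type and less RNA per cell cannot be told apart.

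Some of the promoters that hold a p53 half-site are shown, because such promoters lie in front of both members that rose and members that fell. RefSeq promoters (GRCm38.p6, 250 bases before to 50 after a gene's start) were on hand for 31 of the 38 members. None was on hand for Glipr1, Zmat3, Rrm2b, Perp, Xpc, Ddb2 and Trp53inp1. The half-site consensus is its own reverse complement, so both strands were searched. A match lay in at least 1 promoter of 12 of these 31 members (38.7%), against 9.55% of all 27025 genes. By promoter, 13 of the 46 promoters of these members held a match (28.3%), against 8.36% of all 32851 promoters. The share was 4 of 10 among members higher in all 3 drug comparisons below, 3 of 8 among members lower in all 3, and 5 of 13 among the others. Matches were thus found among members of either direction. A match is a string of letters and not a measured binding site. The stretches below are only a part of the matches. Polk, which rose, Aen and Ei24, which fell, and Abhd4, Ckap2, Ppm1d and Rps27l also held a match and are not shown. The stretches run 5′ to 3′ on the gene's own strand, with each half-site in capitals.
Cdkn1a, rose with the drug, plus strand, chr17:29090881-29090962, half-sites beginning 73 and 51 bases before the gene start: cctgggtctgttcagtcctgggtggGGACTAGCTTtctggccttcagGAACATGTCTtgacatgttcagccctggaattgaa
Mdm2, rose, minus strand, chr10:117710910-117710969, half-site beginning 186 bases before the start: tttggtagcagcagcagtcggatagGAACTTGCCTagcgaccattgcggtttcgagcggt
Sesn1, rose, plus strand, chr10:41887241-41887300, half-site beginning 173 bases before the second listed start: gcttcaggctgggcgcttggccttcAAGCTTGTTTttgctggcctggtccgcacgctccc
Ccng1, fell, minus strand, chr11:40755437-40755496, half-site beginning 185 bases before the start: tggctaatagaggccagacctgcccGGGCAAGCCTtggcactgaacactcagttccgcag
Trp53 itself, plus strand, chr11:69580259-69580318, half-site beginning 75 bases before the start: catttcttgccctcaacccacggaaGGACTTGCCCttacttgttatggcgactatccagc

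Oxaliplatin moved the p53 targets in both directions. In Oxali minus Ctrl, 17 of 35 members were called higher and 12 lower, where 34.8% of all genes tested were called higher, 32.8% lower and 67.6% in either direction. In Combo200 minus IFN200, 16 were higher and 12 lower, against 36.5%, 33.5% and 69.9% of all genes. In Combo2000 minus IFN2000, 16 were higher and 13 lower, against 38.5%, 33.8% and 72.3%. These 3 drug comparisons share no library. Averaged over the 3 IFNγ levels, 33 of 35 members were called (81.9% of all genes). The median log2 fold change of the members was 0.10, 0.09 and 0.08 in the 3 comparisons, and that of all genes was 0.02, 0.02 and 0.03. The members called came to 82.9%, 80.0% and 82.9% of the 35, above the share of all genes in each comparison, and the members moved in both directions as all genes did. The shares of all genes are over every gene tested and were not matched to the members by expression level.

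The 3 comparisons gave nearly the same picture gene by gene. 15 members (42.9% of those tested) were called higher in all 3, against 29.6% of all genes: Cdkn1a, Mdm2, Sesn1, Trp53inp1, Phlda3, Eda2r, Ddb2, Xpc, Polk, Rrm2b, Ephx1, Sulf2, Ak1, Glipr1 and Epha2. 8 members (22.9%) were called lower in all 3, against 26.9% of all genes: Mdm4, Ccng1, Plk3, Aen, Ei24, Apaf1, Dcxr and Fdxr. 5 members were called higher with a fold of at least 2 in all 3, against 8.07% of all genes, and no member was called at least 2-fold lower in all 3. No member was called in opposite directions. The 6 libraries with drug all lay above the 6 without for 14 members (31.8% of all genes) and all below for 10 (28.9%). Over the 35 members, Pearson's r between the log2 fold changes of 2 drug comparisons was 0.986, 0.976 and 0.966, and over all genes 0.862, 0.860 and 0.889, with all libraries from 1 cell line and 1 count table.

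**Figure D1:**
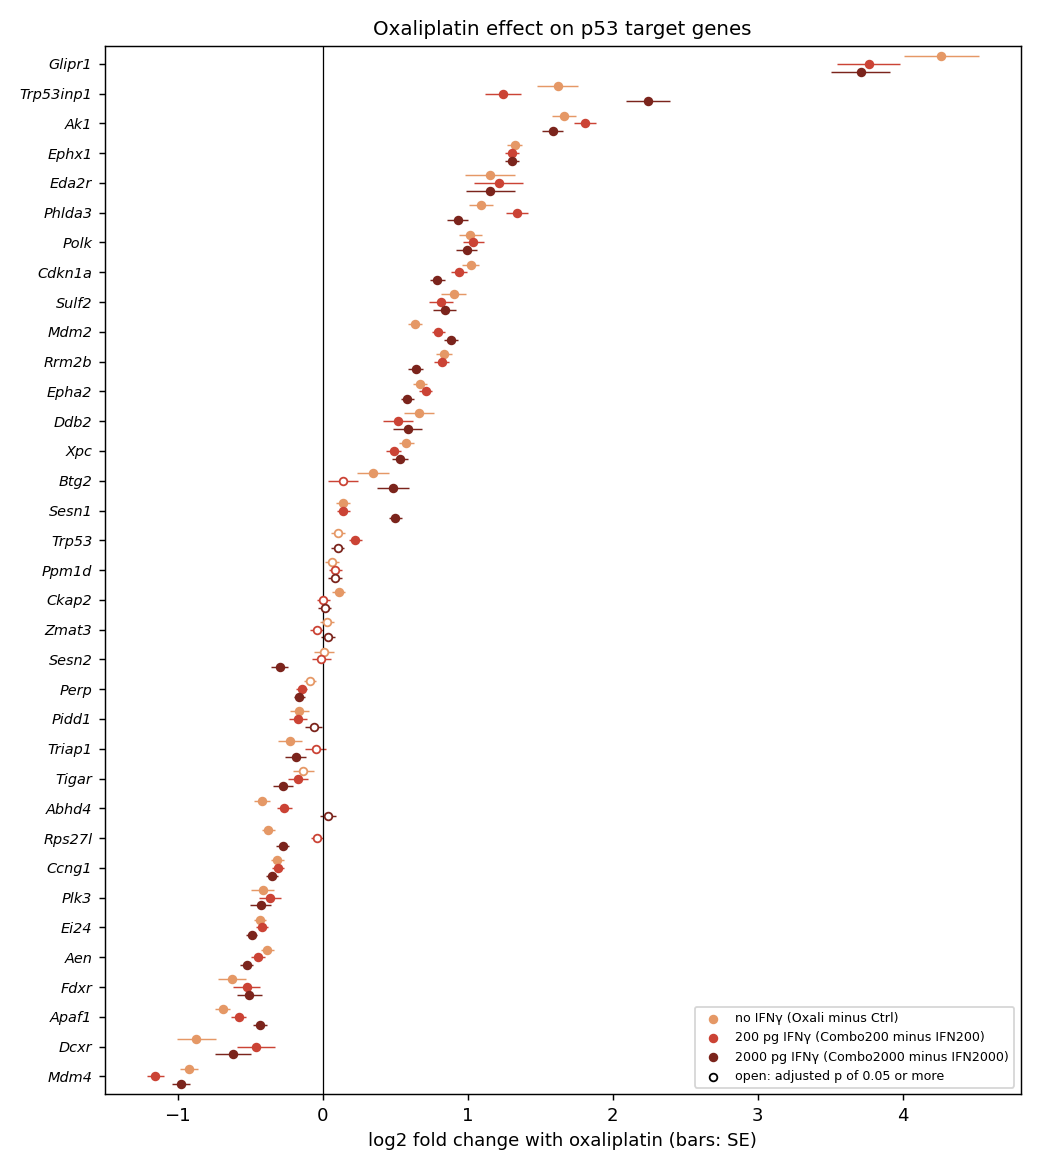
Log2 fold change with oxaliplatin (x axis) for the 35 members tested (y axis, ordered by the mean effect), without IFNγ and at 200 and 2000 pg IFNγ. Points are edgeR estimates, bars are SE, and open points had an adjusted p of 0.05 or more; the 3 colors lie close together for most genes, with Glipr1 farthest right at 4.27, 3.76 and 3.71 and Mdm4 farthest left at -0.92, -1.15 and -0.98.

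p53 and its regulators came first. Trp53 was at 155 and 159 CPM (Ctrl), 149 and 146 (IFN200) and 163 and 153 (IFN2000) without drug, and at 173 and 165 (Oxali), 176 and 169 (Combo200) and 163 and 177 (Combo2000) with drug. The p53 transcript thus stayed within 146 to 177 CPM, and the libraries with and without drug overlapped. Its log2 fold change was 0.10 ± 0.05 (SE, adjusted p = 0.057) in Oxali minus Ctrl, 0.23 ± 0.05 (adjusted p = 0.000244) in Combo200 minus IFN200 and 0.10 ± 0.05 (adjusted p = 0.0522) in Combo2000 minus IFN2000. Averaged over the 3 IFNγ levels, Trp53 was called higher by edgeR, at 0.14 ± 0.03 (adjusted p = 5.90e-05). This averaged value ran from 0.09 to 0.27 over the settings.

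Mdm2 (GRCm38 chr10:117688875-117710758, minus strand) rose and Mdm4 (chr1:132959484-133030561, minus strand) fell. Mdm2 was at 70.7 and 65.2 CPM (Ctrl), 65.9 and 61.0 (IFN200) and 60.4 and 62.8 (IFN2000) without drug, and at 104.2 and 106.8 (Oxali), 110.6 and 110.1 (Combo200) and 113.0 and 114.5 (Combo2000) with drug. Every library with drug lay above every library without. The log2 fold changes were 0.64 ± 0.05, 0.80 ± 0.05 and 0.89 ± 0.05 at no, 200 pg and 2000 pg IFNγ, the largest adjusted p being 4.35e-10. Mdm4 was at 75.8 and 69.3 CPM (Ctrl), 79.0 and 81.2 (IFN200) and 69.8 and 76.4 (IFN2000) without drug, and at 37.9 and 38.5 (Oxali), 33.9 and 37.9 (Combo200) and 38.3 and 35.8 (Combo2000) with drug. It fell in every drug comparison without overlap, with log2 fold changes of -0.92 ± 0.06, -1.15 ± 0.06 and -0.98 ± 0.06. The 2 inhibitors of p53 thus moved in opposite directions in each of the 3 comparisons.

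Ccng1, cyclin G1, which recruits a phosphatase to Mdm2, was lower with the drug. It was at 104.9 and 103.8 CPM (Ctrl), 99.3 and 105.2 (IFN200) and 104.4 and 106.3 (IFN2000) without drug, and at 80.9 and 87.1 (Oxali), 82.6 and 82.8 (Combo200) and 83.4 and 81.9 (Combo2000) with drug. The drug and no-drug libraries did not overlap, and the log2 fold changes were -0.31, -0.31 and -0.35, each with an SE of 0.04. Ppm1d, the phosphatase Wip1 that switches the damage response off, was not called in any of the 3 drug comparisons, with log2 fold changes of 0.07 to 0.09, and was called in their average at 0.08 ± 0.03 (adjusted p = 0.0128).

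Among the growth arrest and signaling genes, Cdkn1a and Phlda3 rose most. Cdkn1a (chr17:29090976-29100727, plus strand) encodes p21, the inhibitor of cyclin-dependent kinases. The transcript was at 24.0 and 24.8 CPM (Ctrl), 26.9 and 25.6 (IFN200) and 29.25 and 30.3 (IFN2000) without drug, and at 51.0 and 48.1 (Oxali), 50.4 and 50.5 (Combo200) and 49.6 and 53.6 (Combo2000) with drug. Its levels with drug were alike at every IFNγ dose, while those without drug were highest in IFN2000. The log2 fold changes were 1.02 ± 0.06, 0.94 ± 0.06 and 0.79 ± 0.05. Phlda3, an inhibitor of AKT, rose by 1.09 ± 0.08, 1.34 ± 0.08 and 0.93 ± 0.07. The receptor tyrosine kinase gene Epha2 rose by 0.67, 0.71 and 0.58. Btg2, an antiproliferative factor, was called higher in Oxali minus Ctrl (0.35 ± 0.11) and Combo2000 minus IFN2000 (0.48 ± 0.11) and stood at 0.14 ± 0.10 in Combo200 minus IFN200. Its first value was 0.17 without Ctrl replicate 2, 0.26 without Oxali replicate 1, neither called, and 0.53 without Ctrl replicate 1. Ckap2, a spindle protein gene, was called in Oxali minus Ctrl at 0.11 ± 0.05 (adjusted p = 0.0447), a call that held in 10 of 23 settings.

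Plk3, a stress kinase of the polo family, was lower. It was at 20.8 and 20.02 CPM (Ctrl), 19.7 and 20.4 (IFN200) and 24.5 and 22.0 (IFN2000) without drug, and at 15.3 and 15.3 (Oxali), 14.7 and 16.3 (Combo200) and 17.3 and 17.3 (Combo2000) with drug. All libraries with drug lay below all without, and the log2 fold changes were -0.41 ± 0.08, -0.36 ± 0.08 and -0.43 ± 0.07.

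Gdf15, Plk2 and Cd82 did not pass the filter. Gdf15, a secreted stress cytokine that p53 can induce, had 0 to 4 counts in every library, which is not enough to show a change. Plk2 had 10 counts in IFN2000 replicate 2 and 0 in the other 11 libraries, and a count of 0 allows up to 3 counts, or 0.111 to 0.167 CPM by library. Cd82, a tetraspanin of the cell surface, had 78 counts in IFN2000 replicate 2 and 0 to 4 elsewhere. Both stood out in the library that held T cell marker reads.

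All 4 members of the DNA repair and nucleotide group rose in the 3 drug comparisons, against 29.6% of all genes. Polk, a polymerase that copies past damaged bases, rose by 1.02 ± 0.08, 1.04 ± 0.07 and 0.99 ± 0.07 on the log2 scale. Rrm2b, the p53-inducible subunit of ribonucleotide reductase, rose by 0.84, 0.82 and 0.64. Ddb2 and Xpc, which recognize DNA lesions for nucleotide excision repair, rose by 0.67, 0.52 and 0.59 and by 0.58, 0.49 and 0.53. Ddb2 shares 652 exonic bases with Acp2 on the opposite strand, and the strand setting of the counting is not stated, so reads of the 2 genes cannot be told apart there.

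Among the metabolic and stress genes, Ak1, Ephx1 and Trp53inp1 rose at least 2-fold in every drug comparison. Ak1, adenylate kinase 1, which interconverts adenine nucleotides, was at 10.2 and 9.12 CPM (Ctrl), 8.42 and 9.72 (IFN200) and 10.4 and 10.5 (IFN2000) without drug, and at 30.1 and 31.1 (Oxali), 31.2 and 32.4 (Combo200) and 31.9 and 31.0 (Combo2000) with drug. The libraries with drug fell between 30.1 and 32.4 CPM at every IFNγ dose, and the log2 fold changes were 1.66 ± 0.08, 1.81 ± 0.08 and 1.59 ± 0.07.

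Ephx1, microsomal epoxide hydrolase, was at 29.0 and 30.6 CPM (Ctrl), 27.8 and 29.4 (IFN200) and 32.0 and 30.1 (IFN2000) without drug, and at 73.4 and 75.7 (Oxali), 72.0 and 69.3 (Combo200) and 75.9 and 77.9 (Combo2000) with drug. The libraries with and without drug were far apart, and levels at the 3 IFNγ doses lay close together within each. The log2 fold changes were 1.32, 1.31 and 1.31, each with an SE of 0.05.

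Trp53inp1, a nuclear partner that promotes p53 activity and autophagy, was at 5.84 and 4.36 CPM (Ctrl), 7.38 and 5.52 (IFN200) and 2.27 and 3.35 (IFN2000) without drug, and at 15.9 and 15.3 (Oxali), 15.4 and 15.2 (Combo200) and 13.1 and 13.4 (Combo2000) with drug. It was lowest in IFN2000 and at similar levels in Oxali and Combo200. The log2 fold changes with drug were 1.62 ± 0.14, 1.24 ± 0.13 and 2.24 ± 0.15.

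Dcxr, dicarbonyl and L-xylulose reductase, was lower with the drug. It was at 7.51 and 7.50 CPM (Ctrl), 5.56 and 6.54 (IFN200) and 6.81 and 6.79 (IFN2000) without drug, and at 4.42 and 3.77 (Oxali), 4.40 and 4.37 (Combo200) and 4.11 and 4.79 (Combo2000) with drug. The 6 libraries with drug lay below the 6 without, with log2 fold changes of -0.87 ± 0.14, -0.46 ± 0.13 and -0.62 ± 0.13. Without IFN200 replicate 2 the middle value was -0.35 (adjusted p = 0.0521).

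Fdxr, the mitochondrial ferredoxin reductase, was at 22.3 and 20.7 CPM (Ctrl), 18.8 and 21.2 (IFN200) and 23.2 and 19.8 (IFN2000) without drug, and at 14.97 and 12.8 (Oxali), 14.2 and 13.6 (Combo200) and 15.2 and 15.2 (Combo2000) with drug. It too was separated by drug, with log2 fold changes of -0.63 ± 0.10, -0.52 ± 0.09 and -0.50 ± 0.09. Sesn2, a stress inhibitor of mTORC1, was called lower in Combo2000 minus IFN2000 at -0.30 ± 0.06. Tigar, which diverts glucose to the pentose phosphate pathway, was called lower in both combination comparisons, at -0.17 ± 0.07, a call lost without either library of either group, and -0.27 ± 0.07.

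Of the 9 apoptosis and survival genes, 3 were called lower in all 3 drug comparisons (26.9% of all genes) and 1 higher (29.6%). Eda2r, a death receptor of the TNF family encoded on the X chromosome, was the one called higher. It was at 2.23 and 3.14 CPM (Ctrl), 2.08 and 2.56 (IFN200) and 2.23 and 2.72 (IFN2000) without drug, and at 5.76 and 6.30 (Oxali), 5.37 and 5.41 (Combo200) and 5.89 and 5.09 (Combo2000) with drug. It more than doubled in each comparison, with log2 fold changes of 1.16, 1.21 and 1.16, each with an SE of 0.17.

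Apaf1, the scaffold of the apoptosome, was at 53.1 and 49.8 CPM (Ctrl), 50.5 and 50.3 (IFN200) and 43.0 and 45.0 (IFN2000) without drug, and at 32.0 and 31.7 (Oxali), 34.0 and 33.5 (Combo200) and 32.6 and 32.5 (Combo2000) with drug. Levels with drug were alike at all IFNγ doses, and IFN2000 was the lowest of the groups without drug. The log2 fold changes were -0.69, -0.58 and -0.43, each with an SE of 0.05.

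Aen, an apoptosis-enhancing nuclease, was at 96.4 and 103.5 CPM (Ctrl), 100.4 and 105.0 (IFN200) and 115.2 and 112.2 (IFN2000) without drug, and at 78.6 and 75.0 (Oxali), 77.3 and 73.7 (Combo200) and 79.6 and 78.6 (Combo2000) with drug. All libraries with drug were below all without, and the log2 fold changes were -0.38, -0.45 and -0.52, with an SE of 0.05, 0.05 and 0.04. Ei24, an endoplasmic reticulum protein gene, was at 153.2 and 156.0 CPM (Ctrl), 151.8 and 157.4 (IFN200) and 161.9 and 160.4 (IFN2000) without drug, and at 113.6 and 115.7 (Oxali), 112.8 and 118.5 (Combo200) and 115.8 and 113.8 (Combo2000) with drug. It was separated by drug as well, with log2 fold changes of -0.43, -0.42 and -0.49, each with an SE of 0.04.

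Rps27l, a ribosomal protein paralog, was called lower in Oxali minus Ctrl (-0.38 ± 0.04) and Combo2000 minus IFN2000 (-0.28 ± 0.04), and its levels stand with the interactions. Perp, a desmosomal membrane protein gene, was called lower in both combination comparisons at -0.14 and -0.16. Pidd1, the scaffold of the PIDDosome, was called lower in Oxali minus Ctrl and Combo200 minus IFN200 at -0.16 and -0.17, calls that held in 13 and 17 of 23 settings. Triap1, an inhibitor of apoptosis, was called lower in Oxali minus Ctrl and Combo2000 minus IFN2000 at -0.22 and -0.19, and without IFN2000 replicate 2 the latter was -0.05. Zmat3, an RNA-binding protein gene, was not called in any, with values of -0.04 to 0.04.

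Glipr1 and Sulf2 make up the cell surface and secreted members that were tested. Glipr1, a secreted CAP-family protein gene, was at 0.278 and 0.456 CPM (Ctrl), 0.478 and 0.619 (IFN200) and 0.814 and 0.491 (IFN2000) without drug, and at 7.46 and 7.01 (Oxali), 7.76 and 7.27 (Combo200) and 9.41 and 7.80 (Combo2000) with drug. It had 5 to 19 counts in each library without drug and 147 to 254 in each with drug, the largest fold of any member. The log2 fold changes were 4.27 ± 0.26, 3.76 ± 0.22 and 3.71 ± 0.20. Glipr1 shares 352 exonic bases with Krr1 on the opposite strand, a gene with 20468 counts in all, and the strand setting is not stated. Sulf2, a heparan sulfate 6-O-endosulfatase gene, rose by 0.90, 0.82 and 0.84, and shares 154 exonic bases with Ncoa3 on the opposite strand.

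**Figure D2:**
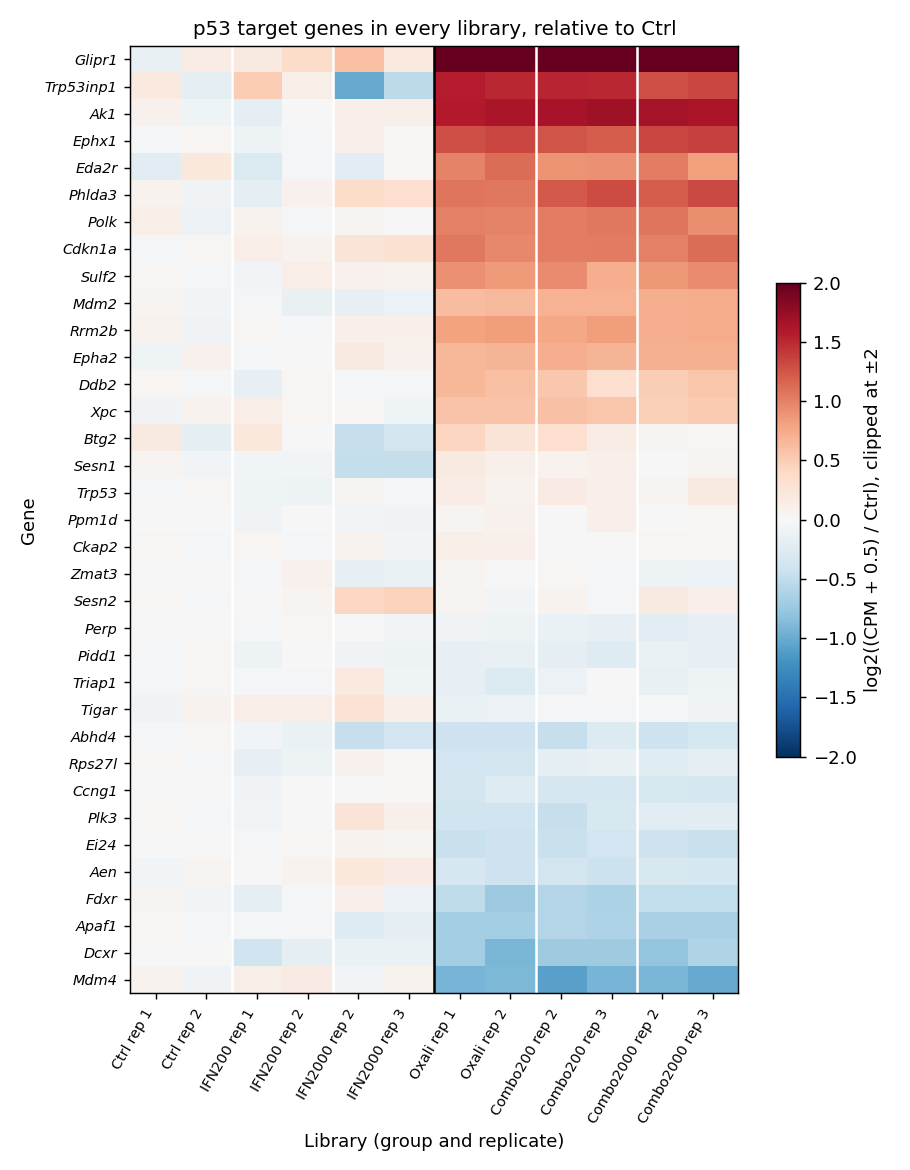
Log2 ratio of CPM + 0.5 to the Ctrl mean for the 35 members tested (rows) in each of the 12 libraries (columns), with color clipped at ±2. The black line separates the 6 libraries without oxaliplatin from the 6 with it, across which 14 members are all above and 10 all below.

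Levels between genes were compared per kilobase of merged exons (CPM per kb). In Ctrl, Rps27l was highest at 115.5 ± 3.21 (SD, n = 2), followed by Perp at 90.5 ± 0.104 and Trp53 at 38.8 ± 0.767. Cdkn1a stood at 6.87 ± 0.149 and Mdm2 at 13.4 ± 0.771. Trp53inp1, Eda2r and Glipr1, 3 of the 5 members that rose at least 2-fold throughout, were the lowest of the 35 tested, at 0.788 ± 0.162, 0.456 ± 0.110 and 0.238 ± 0.0815. Neighbors such as Ei24 (31.8 ± 0.402) and Ckap2 (30.4 ± 0.83) lay close together. In Oxali, Glipr1 reached 4.69 ± 0.205 and Trp53inp1 2.41 ± 0.0731, while Rps27l and Perp were still the highest at 89.1 ± 0.836 and 85.1 ± 1.21.

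With IFNγ alone, members were called at the high dose and not at the low dose. In IFN200 minus Ctrl, no member was called by edgeR or DESeq2 (0.114% of all genes by edgeR), and 4 had an unadjusted p under 0.05. In IFN2000 minus Ctrl, 11 members were called, 5 higher and 6 lower, where 8.39% of all genes were called higher, 8.47% lower and 16.9% in either direction. The members called higher were Sesn2 (0.44 ± 0.07), Phlda3 (0.36 ± 0.09), Cdkn1a (0.29 ± 0.06), Tigar (0.21 ± 0.07) and Aen (0.19 ± 0.05). Those called lower were Trp53inp1 (-0.86 ± 0.20), Sesn1 (-0.48 ± 0.05), Btg2 (-0.44 ± 0.12), Abhd4 (-0.42 ± 0.05), Apaf1 (-0.23 ± 0.05) and Zmat3 (-0.15 ± 0.05).

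Several IFN2000 calls were lost when 1 library was left out. Without IFN2000 replicate 2, the library with T cell reads, 4 members were called, as also without Ctrl replicate 1, and without IFN2000 replicate 3 there were 14. The 4 were Cdkn1a, Sesn1, Sesn2 and Abhd4 in the first case and Phlda3, Sesn1, Sesn2 and Abhd4 in the second. The 7 members no longer called kept their direction: without IFN2000 replicate 2, Phlda3 stood at 0.34, Btg2 at -0.38, Trp53inp1 at -0.59 and Tigar at 0.13, and without Ctrl replicate 1 Btg2 stood at -0.24 and Trp53inp1 at -0.63. Sesn1, Sesn2 and Abhd4 were called under each of the 23 settings. In the IFN2000 libraries the log ratio to Ctrl fell with transcript length, with a Spearman correlation across genes of -0.346 in replicate 2 and -0.187 in replicate 3, against -0.016 to 0.148 in the other 10 libraries. With an offset for length and GC content, Apaf1 stood at -0.12 and Zmat3 at -0.01 and neither was called, while Sesn1, Sesn2, Abhd4, Trp53inp1 and Cdkn1a still were.

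With the drug present, at most 1 member was called at an IFNγ dose. In Combo200 minus Oxali, 1 member was called (1.83% of all genes), Rps27l at 0.21 ± 0.04 (adjusted p = 0.0128). This call was lost with DESeq2, with the replicate number as a block, and without any 1 of the 4 libraries compared. In Combo2000 minus Oxali, no member was called by edgeR or DESeq2 (4.36% of all genes by edgeR), 9 had an unadjusted p under 0.05, and the log2 fold changes ran from -0.30 ± 0.10 for Btg2 to 0.26 ± 0.13 for Glipr1. The offset for length and GC content gave 3 calls there, Perp, Phlda3 and Rps27l. IFN2000 minus Ctrl and Combo2000 minus Oxali share no library, and over the 35 members Pearson's r between them was 0.708, against 0.490 over all genes tested.

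**Figure D3:**
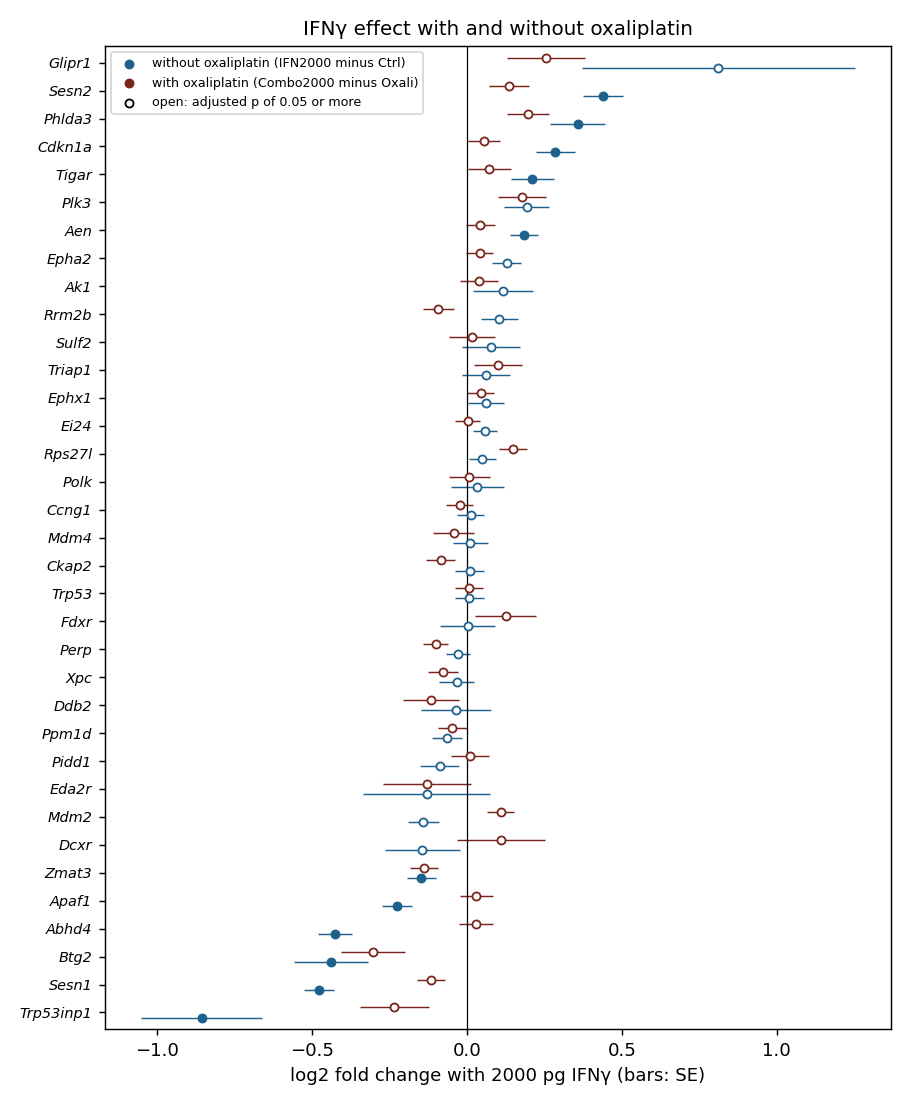
Log2 fold change with 2000 pg IFNγ (x axis) for the 35 members tested (y axis), without oxaliplatin (blue, IFN2000 minus Ctrl) and with it (dark red, Combo2000 minus Oxali). Bars are SE and open points had an adjusted p of 0.05 or more. There are 11 filled blue points and no filled red one. Trp53inp1, Sesn1 and Abhd4 lie lower without the drug than with it, a difference that was called at 2000 pg for Sesn1 and Abhd4 and not for Trp53inp1.

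Whether IFNγ changed the drug effect was tested as the difference between the drug effect at an IFNγ dose and that without IFNγ. At 200 pg, 1 of 35 members was called (0.698% of all genes). At 2000 pg, 2 were called (2.72% of all genes), with 1 without Ctrl replicate 1 and 5 without IFN2000 replicate 3. In the joint test of both doses, 4 were called, Sesn1, Abhd4, Rps27l and Trp53inp1 (5.11% of all genes), with 2 without IFN200 replicate 1 or Combo200 replicate 3 and 7 without IFN2000 replicate 3. For the other 31 members, a change in drug effect with IFNγ did not pass the test. Mdm2 was closest at 2000 pg, with a difference of 0.25 ± 0.07 (adjusted p = 0.0504), and it was called under 5 of the 23 settings.

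Sesn1 (chr10:41809935-41908424, plus strand), sestrin 1, is an inhibitor of mTORC1 and a p53 target. It was at 80.4 and 74.8 CPM (Ctrl), 74.7 and 74.3 (IFN200) and 55.9 and 55.6 (IFN2000) without drug, and at 87.6 and 83.3 (Oxali), 81.5 and 82.9 (Combo200) and 77.4 and 80.5 (Combo2000) with drug. The IFN2000 libraries were the lowest, and the 3 groups with drug differed little. The drug effect was 0.14 ± 0.05 without IFNγ, 0.14 ± 0.04 at 200 pg and 0.50 ± 0.05 at 2000 pg, and the difference at 2000 pg was 0.36 ± 0.06 (adjusted p = 0.00303). The difference lay between 0.30 and 0.40 under all settings and was not called without Ctrl replicate 1 (0.30, adjusted p = 0.0585). With the length and GC offset it was 0.36 (adjusted p = 0.000564). The drug effect without IFNγ was not called when Ctrl replicate 2 (0.09) or Oxali replicate 1 (0.10) was left out, and the effect at 200 pg was not called without IFN200 replicate 2 (0.13), without Combo200 replicate 3 (0.12) or with DESeq2 (0.13).

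Abhd4 (chr14:54254188-54270637, plus strand), a lipase of N-acyl phospholipids, was at 84.3 and 86.3 CPM (Ctrl), 81.9 and 77.4 (IFN200) and 61.7 and 65.5 (IFN2000) without drug, and at 64.2 and 63.7 (Oxali), 62.1 and 70.3 (Combo200) and 63.9 and 66.6 (Combo2000) with drug. It was lower with the drug alone, lower with 2000 pg IFNγ alone, and near the same level with both. The drug effect was -0.42 ± 0.05 without IFNγ, -0.26 ± 0.05 at 200 pg and 0.04 ± 0.05 at 2000 pg. The difference at 2000 pg was 0.45 ± 0.08 (adjusted p = 0.00197), ran from 0.40 to 0.49 over the 23 settings and was called in each.

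Rps27l (chr9:66946086-66949516, plus strand), a ribosomal protein paralog that p53 induces and that regulates Mdm2, was at 96.1 and 92.4 CPM (Ctrl), 84.2 and 87.8 (IFN200) and 99.7 and 95.4 (IFN2000) without drug, and at 72.2 and 73.2 (Oxali), 82.3 and 85.2 (Combo200) and 79.2 and 82.0 (Combo2000) with drug. The Oxali libraries were the lowest, and IFN200 and Combo200 lay close together. The drug effect was -0.38 ± 0.04 without IFNγ, -0.04 ± 0.04 at 200 pg and -0.28 ± 0.04 at 2000 pg, and with the length and GC offset these were -0.15, 0.20 and 0.04. The difference at 200 pg was 0.34 ± 0.06 (adjusted p = 0.0093). It was not called without Ctrl replicate 1 (0.30), Ctrl replicate 2 (0.35), IFN200 replicate 1, the library with heart muscle reads (0.30), Oxali replicate 2 (0.35) or Combo200 replicate 3 (0.31). Rps27l has a close paralog, Rps27, with which reads could be split, so its counts are uncertain.

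Trp53inp1 was called in the joint test (adjusted p = 0.0221) and in neither single one, where the differences were -0.38 ± 0.20 at 200 pg and 0.62 ± 0.23 at 2000 pg. The joint call held in 14 of 21 settings, with adjusted p up to 0.138 without IFN2000 replicate 2, and the 2000 pg difference was 0.36 there, 0.39 without Ctrl replicate 1 and 0.90 without IFN2000 replicate 3.

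**Figure D4:**
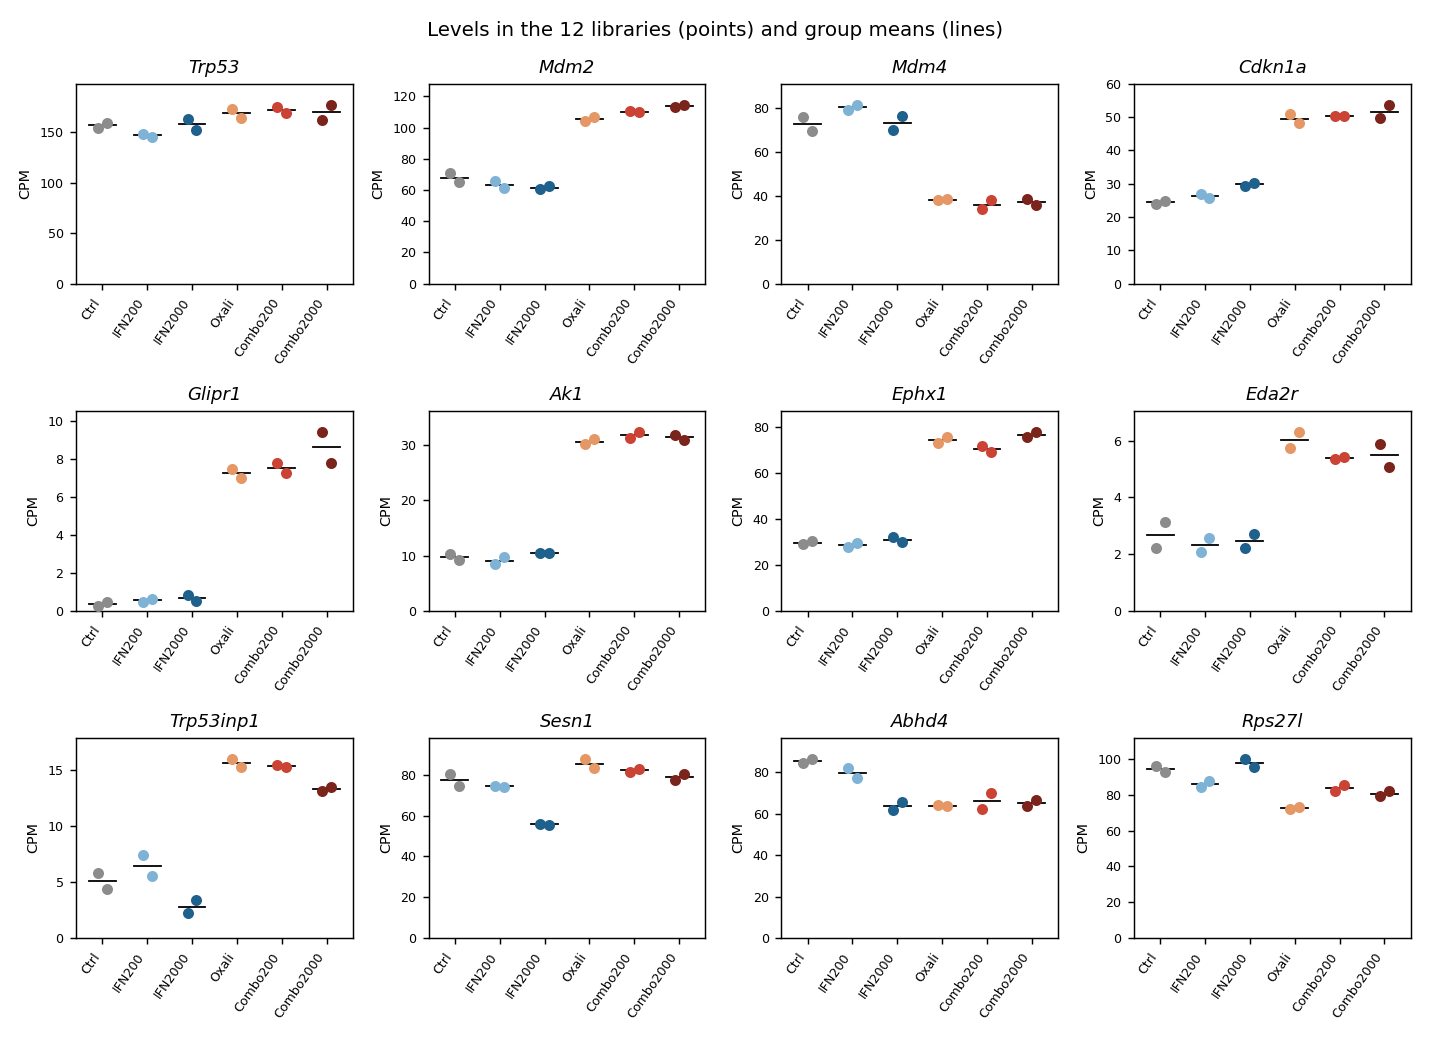
CPM (y axis, from 0) in each of the 12 libraries (points, 2 per group) with the group mean (line) for p53, its 2 inhibitors, Cdkn1a, the 5 members that rose at least 2-fold throughout and the members whose drug effect differed with IFNγ. Mdm2 is above 104 CPM in every library with oxaliplatin and Mdm4 below 39, and Sesn1 and Trp53inp1 are lowest in IFN2000.

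Other genes of the pathway were taken from fixed lists. Of 21 tested regulators and partners of p53, 8 were called higher and 8 lower with oxaliplatin averaged over the IFNγ levels, where 81.9% of all genes were called. The largest changes were in Rpl5 (-1.08 ± 0.02), a ribosomal protein that binds Mdm2, Ppp1r13b (1.04 ± 0.03), a partner that steers p53 to apoptosis genes, and Rchy1 (0.76 ± 0.03), a ubiquitin ligase for p53. The median over the 21 genes was 0.03, against 0.02 over all genes tested. Of 12 tested apoptosis targets and BCL2 family partners, 8 were called higher and 3 lower, against the same 81.9% of all genes, with a median of 0.56. The death receptor gene Fas was called higher, with 0 to 7 counts in each library without drug and 23 to 79 in each with drug. Pmaip1, which encodes the BH3-only protein Noxa, rose by 1.43 ± 0.02, and the TRAIL receptor gene Tnfrsf10b by 1.08 ± 0.03. The list also holds inhibitors of apoptosis, so its count and median give no direction for apoptosis. Of these inhibitors, Bcl2 was at 15.2 to 19.3 CPM without drug and 28.2 to 31.5 with drug. Mcl1 was lower with the drug, at 163.6 to 168.1 CPM without and 145.3 to 152.7 with. Bcl2l1 overlapped, at 154.6 to 166.2 CPM without drug and 155.4 to 174.8 with drug. The p53 target Bbc3 was at 2.998 to 4.339 CPM without drug and 2.155 to 3.408 with drug. Bax, the pore-forming p53 target, fell by 0.82 ± 0.03 on the log2 scale, from 73.8 to 83.3 CPM without drug to 42.1 to 46.5 with drug.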

How the data were processed

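RNA was taken from Myc-CaP cells, a mouse prostate cancer line, and sequenced as polyA libraries from a stranded kit. The authors deposited 1 table of raw counts per gene, with no normalization. The submitters' processing notes name STAR 2.7.3a, RSEM 1.3.0 and GRCm38, and the study's methods name featureCounts for the counting, whose strand setting is not given in the sources used here. Groups came from the sample titles. Genes passing filterByExpr (minimum count 10, minimum total 15) were fitted with edgeR 4.0.16 (R 4.3.3): TMM scaling, 1 quasi-likelihood fit of all 12 libraries with a mean per group, and Benjamini-Hochberg adjustment over all genes within a comparison. A gene was called at an adjusted p under 0.05. Values are log2 fold changes with their standard error (SE), or CPM (counts relative to the TMM-scaled library size). The fit was checked on simulated data in which few genes changed, as many up as down, without a length trend or reads of other cells. The check therefore does not cover changes as broad as those with the drug. Alternatives were other scalings and filters, DESeq2 1.42.0, a replicate block, an offset for transcript length and GC content, and each library left out. The members, lists and tests were chosen with earlier results of these data known. Values in every library are given for members called in an interaction, for those changed at least 2-fold or lower in all 3 drug comparisons, and for Trp53, Mdm2 and Cdkn1a. Nothing says that the 2 libraries of a group came from separate cultures, so the p-values measure the spread between these libraries.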

Additional observations from a re-analysis of the deposited data

Results flagged for a closer look

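For 4 members the drug effect differed with IFNγ by the test of the difference. The values were 0.34 at 200 pg for Rps27l, and 0.36 for Sesn1 and 0.45 for Abhd4 at 2000 pg. The joint test over both doses gave adjusted p = 0.00204 for Sesn1, 0.00394 for Abhd4, 0.0067 for Rps27l and 0.0221 for Trp53inp1 with edgeR's quasi-likelihood test. In the lists of other pathway genes, the difference at 2000 pg was 0.55 for Atm, the kinase that signals DNA breaks, and -0.26 for Birc5, which encodes survivin, with joint adjusted p = 0.00628 and 0.0156. Each comparison has 2 libraries per group, and the transcript length trend and the T cell reads of the IFN2000 libraries stand beside the values at 2000 pg. Their part in these values was not tested beyond the alternatives given.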

How the results depend on the processing

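With each library left out in turn, the members called numbered 24 to 31 in Oxali minus Ctrl, 24 to 28 in Combo200 minus IFN200, 29 to 30 in Combo2000 minus IFN2000, 31 to 34 for the averaged drug effect, 0 in IFN200 minus Ctrl, 4 to 14 in IFN2000 minus Ctrl, 0 to 1 in Combo200 minus Oxali, 0 to 1 in Combo2000 minus Oxali, 0 to 1 and 1 to 5 for the interactions at 200 and 2000 pg, and 2 to 7 in the joint test. Where this leaves 1 library in a group, it is assumed to vary like the other groups.

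The replicate numbers showed no pairing of the libraries across genes: the deviations of 21 same-numbered pairs correlated at -0.0456 to 0.045. With 2 libraries per group the 2 deviations mirror each other, so pairs from the same 2 groups repeat a value and are not independent. With a replicate block, members called fell to 7 in IFN2000 minus Ctrl, 0 in Combo200 minus Oxali, 0 for the interaction at 200 pg and 2 in the joint test. With the replicate block and the length and GC offset together, 6 were called in IFN2000 minus Ctrl. The length and GC offset alone gave 3 in Combo2000 minus Oxali and 4 for the interaction at 2000 pg. Without the filter there were 1, 4 and 7 in Combo2000 minus Oxali, the interaction at 2000 pg and the joint test. DESeq2 called 0 in Combo200 minus Oxali. In place of Oxali minus Ctrl, Combo200 minus Ctrl and Combo2000 minus Ctrl, chosen after seeing the data, gave 28 each.

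Signs turned between values of which at least 1 was called for Rps27l and Sesn2, and uncalled values near 0 changed sign too, among them those of Perp in Oxali minus Ctrl (-0.10 to 0.04), Pidd1 in Combo2000 minus IFN2000 (-0.20 to 0.06) and Triap1 in Combo200 minus IFN200 (-0.12 to 0.07). With the length and GC offset, Rps27l stood at 0.20 in Combo200 minus IFN200, 0.0415 in Combo2000 minus IFN2000 and 0.0299 averaged, and with the block added at 0.202, 0.0416 and 0.0307. Sesn2 stood at -0.16 in Oxali minus Ctrl with the offset and at 0.0222 averaged with library totals as scaling. The cause was not tested. Of the values for the 23 members changed in all 3 drug comparisons, 1512 under alternatives kept direction and call and 6 lost the call, for Sesn1 and Dcxr. With 2 libraries a group, small changes and genes of few counts are beyond what these data can show.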

Other observations

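Of 15 cell cycle genes that are repressed through p21 and the DREAM complex, 9 were called lower and 3 higher by edgeR with oxaliplatin averaged over the IFNγ levels, where 81.9% of all genes were called, with a median log2 fold change of -0.18. The largest changes were in Foxm1, a mitotic transcription factor gene (0.65 ± 0.02), Mybl2, its partner (-0.55 ± 0.03), and Ccna2, cyclin A2 (-0.48 ± 0.02). The 3 that rose were Foxm1, E2f1 (0.23 ± 0.03), which drives entry into S phase, and Top2a (0.29 ± 0.02), topoisomerase II. Foxm1 was at 147 to 162 CPM without drug and 238 to 251 with drug. With IFNγ alone, in IFN2000 minus Ctrl, 9 of the 15 were called higher and 1 lower, where 8.39% and 8.47% of all genes were called, with a list median of 0.14. The IFN2000 values carry the transcript length trend and the T cell reads described with those libraries, whose part was not tested.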
